A study of Mus musculus with 39 samples.

Results

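Mouse brain transcriptomes at 7 days were compared with those at 3 days after soman, at the higher doses of the series, 1/5 and 1/2 of the LD50. The comparison used 12 of the 39 libraries of the series, chosen by their labels: 3 libraries of each dose at each day. The 1/10 LD50 dose was left out of the comparison because 2 of its 3 day 7 libraries had a high mitochondrial share, 23.1% and 27.6%. Its values, counts and a test against the higher doses, from a model of all 39 libraries, are given beside the main results. Soman is an organophosphorus nerve agent that inactivates acetylcholinesterase, so that acetylcholine stays at cholinergic synapses. The LD50 is the dose lethal to 50% of animals. All 12 libraries came from brain of mice that had received soman under the skin, and 3 further libraries came from mice given saline. The labels call the 3 libraries of a group biological replicates. They do not give strain, sex, age, the part of the brain, the number of animals per library, the hour of collection, whether soman was given once or repeatedly, or the day at which the saline brains were taken. Nor do they say whether day 3 and day 7 brains were collected or processed together. The time since soman and any other difference between the samples of each day therefore cannot be told apart.

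Values are FPKM, fragments scaled to transcript length and to the mapped fragments of the library. A gene was tested if it reached 1 FPKM in at least 3 of the 12 libraries, which 14227 genes did. Changes are differences of log2(FPKM + 1), day 7 minus day 3, averaged over both doses unless a dose is named, and they understate changes of genes near or below 1 FPKM. They are given with their standard error (SE) and the limma p-value adjusted over all tested genes. A gene is said to have risen or fallen where the adjusted p was under 0.05.

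Neurons that fire strongly switch on immediate early genes within minutes and without new protein synthesis. The group holds transcription factors of the Fos, Egr and Nr4a families, phosphatases that limit the MAP kinase signal, and proteins that act at the synapse. Calcium and cyclic AMP reach many of them through the factor CREB, which binds DNA at sites with the core TGACG. The endoplasmic reticulum holds a separate set of chaperones that fold membrane and secreted proteins. These genes are controlled together by the unfolded protein response, through the factors ATF6 and XBP1 and a promoter element of CCAAT and CCACG separated by 9 bases.

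The 12 libraries were not uniform. Genes of the cerebellum were low in 1 day 3 library (1/5 LD50, replicate 2) and 1 day 7 library (1/2 LD50, replicate 1): Pcp2, a gene of Purkinje cells, stood at 0.92 and 0.261 FPKM, against 45.5 to 113 in the other 10. The 16 markers of granule and Purkinje cells summed to 459 and 462 FPKM in this pair and to between 594 and 943 in the rest. One library of the pair lies on each day, but they lie at different doses. Where the change is compared between the doses, both libraries therefore enter with the same sign. Results of that dose difference without the pair are not given here. Of 38 genes named by rule that passed the main test, 16 also passed without both libraries, and the losses are given with the genes. In bulk tissue, fewer cells of a type and less RNA per cell cannot be told apart. Mitochondrial genes took 8.82% to 11.7% of the FPKM at day 3 and 10.4% to 13.2% at day 7, a difference of 1.67 percentage points (exact permutation test within dose, two-sided, p = 0.04). More genes were listed above 0 at day 7, 26442 to 29662 against 25027 to 26331 at day 3, with no overlap (exact permutation p = 0.005, the smallest that 400 arrangements allow). The sums over 6 neuron markers overlapped, with 1341 to 1563 FPKM at day 3 and 1333 to 1522 at day 7. The part of these library differences in the gene results below was tested only by leaving libraries out and by leaving mitochondrial genes out.

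**Figure D1:**
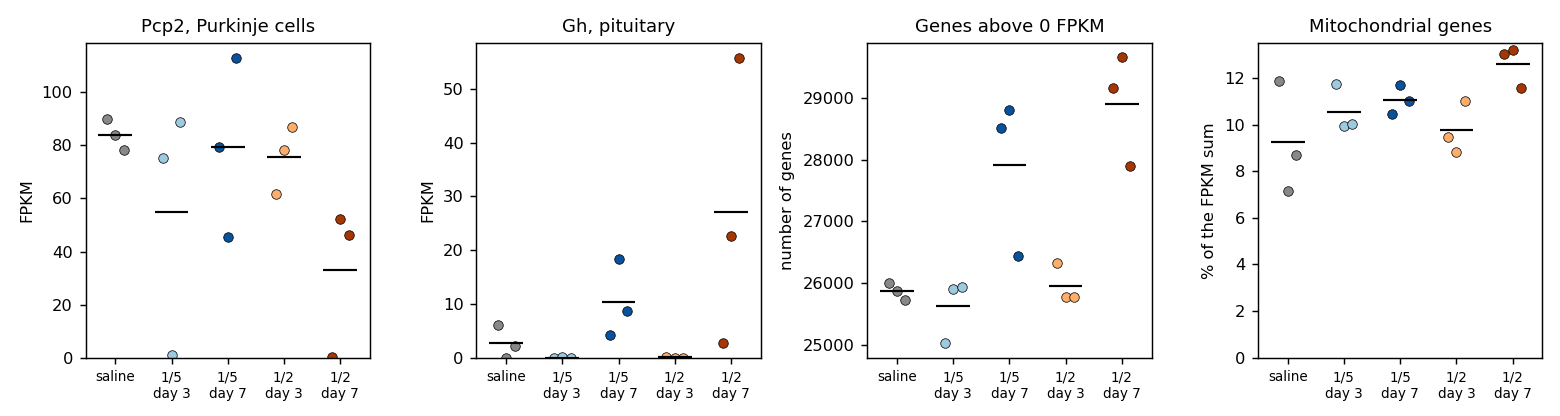
Pcp2 and Gh levels (FPKM), number of genes above 0 FPKM (axis not from 0) and mitochondrial share of the FPKM sum (%), for saline and for both doses at each day. Points are libraries and lines are means of 3; 2 libraries lie near 0 for Pcp2, and all day 7 libraries lie above all day 3 libraries in genes above 0.

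Over all tested genes, 81 differed between the days (0.569%), of which 65 rose (0.457%) and 16 fell (0.112%). At an unadjusted p under 0.05 there were 1637. The median log2 change of all tested genes was -0.02. At 1/5 LD50 alone 87 rose (0.612%) and 12 fell (0.0843%). At 1/2 LD50 alone 4 rose (0.0281%) and 0 fell in limma, with 1274 of either direction under 0.05 before adjustment. The 4 were Junb, Fosb, Fosl2 and the predicted locus LOC118567915, the last of which was singled out after its values were seen. Without the pair of libraries low in cerebellar genes, 34 genes differed in the main comparison, 35 at 1/5 LD50 and 1 at 1/2 LD50.

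Immediate early genes made up the largest group of those 65 rises. Of 30 listed and tested members 21 rose and none fell, against 0.457% risen among all tested genes, and the median change was 0.53. In 22 of the 30, all 6 day 7 libraries lay above all 6 day 3 libraries, against 0.576% of all tested genes. The members' promoters are shown here because they can be read for the CREB core named above. They are the 200 bases before the transcription start, 5′ to 3′ on the gene's strand, from RefSeq on build GRCm38.p6. Capitals mark TGACG or its reverse complement CGTCA. The 5 genes, all of transcription factors, were taken by smallest p among risen members with a single RefSeq window and a match in these bases. A match in each of the 5 is therefore set by this choice.
Junb, chr8:84978749-84978948, minus strand: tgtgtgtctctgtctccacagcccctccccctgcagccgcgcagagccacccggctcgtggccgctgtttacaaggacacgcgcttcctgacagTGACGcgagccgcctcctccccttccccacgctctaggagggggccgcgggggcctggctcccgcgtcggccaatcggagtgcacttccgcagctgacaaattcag
Fosb, chr7:19310046-19310245, minus strand: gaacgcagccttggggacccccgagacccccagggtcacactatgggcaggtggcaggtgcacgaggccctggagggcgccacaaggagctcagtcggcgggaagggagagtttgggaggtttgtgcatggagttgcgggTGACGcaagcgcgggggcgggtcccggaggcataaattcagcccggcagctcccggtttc
Npas4, chr19:4989972-4990171, minus strand: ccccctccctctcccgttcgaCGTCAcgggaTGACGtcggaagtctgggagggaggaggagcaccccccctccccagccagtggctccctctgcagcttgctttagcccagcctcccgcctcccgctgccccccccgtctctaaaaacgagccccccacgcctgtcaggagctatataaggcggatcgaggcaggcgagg
Nr4a1, chr15:101266646-101266845, plus strand: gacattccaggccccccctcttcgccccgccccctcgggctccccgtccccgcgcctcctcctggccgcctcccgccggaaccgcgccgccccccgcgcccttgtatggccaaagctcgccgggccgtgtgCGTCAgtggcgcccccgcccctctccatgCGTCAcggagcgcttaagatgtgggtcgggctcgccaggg
Fos, chr12:85473690-85473889, plus strand: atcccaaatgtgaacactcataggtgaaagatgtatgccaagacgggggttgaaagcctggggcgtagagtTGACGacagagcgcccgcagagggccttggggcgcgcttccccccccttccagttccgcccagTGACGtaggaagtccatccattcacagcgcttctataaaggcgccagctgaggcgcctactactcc

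Within 250 bases before the start, on either strand, TGACG was found in 16 of the 22 list members with a RefSeq window (72.7%), among them 10 of the 14 risen members with a window (71.4%). The same letters were found in 30.5% of the windows of tested genes and 19.8% of all windows. In Npas4 the matches start 179 and 169 bases before the start site, in Fos 129 and 66, in Nr4a1 69 and 40, in Junb 106 and in Fosb 60. The match is a count of letters and does not show that a factor binds there.

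Among the transcription factors, Fos, a subunit of the AP-1 complex, stood at 1.49, 1.43 and 5.1 FPKM at day 3 after 1/5 LD50 and at 4.46, 4.33 and 4.01 after 1/2 LD50. At day 7 it stood at 11.3, 13.6 and 11.3 after 1/5 LD50 and at 11.4, 14.1 and 12.4 after 1/2 LD50. The lowest day 7 library was thus more than double the highest at day 3, and the day 7 libraries lay near the saline libraries at 12.7, 11.2 and 10.4. The change was 1.67 ± 0.19 (SE, adjusted p = 0.00263), or 3.55-fold between the mean FPKM of the days. Fosb, a relative of Fos that builds up with repeated activity, rose from 0.575, 0.38 and 0.668 to 2.36, 2.43 and 1.91 FPKM at 1/5 LD50. At 1/2 LD50 it rose from 0.575, 0.932 and 0.651 to 2.16, 1.88 and 2.1. All 6 day 7 values also lay above the saline values of 1.3, 1.18 and 1.02. All 6 day 3 values of Fosb were below 1 FPKM, so it entered the test only through day 7 libraries. Junb, another AP-1 subunit, rose from 5.72, 6.28 and 8.36 to 17.6, 18.9 and 16.5 FPKM at 1/5 LD50 and from 9.17, 7.8 and 10.0 to 17.6, 19.9 and 16.5 at 1/2 LD50, with saline at 11.5, 12.8 and 11.5. The groups did not overlap at either dose. The changes of Junb and Fosb were 1.10 ± 0.09 and 0.95 ± 0.08 (adjusted p = 0.000288 for each), and each passed the test at each dose on its own. Jun and Jund, which pair with the Fos proteins, did not pass (log2 changes -0.03 and 0.00, adjusted p = 0.883 and 0.999), and their day 3 and day 7 libraries overlapped.

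Npas4, a factor of active neurons that shapes inhibitory synapses, stood at 0.681, 0.674 and 1.26 FPKM at day 3 and 5.16, 4.88 and 3.46 at day 7 after 1/5 LD50. After 1/2 LD50 it stood at 1.28, 1.73 and 0.975 and then at 4.28, 3.73 and 2.86. The change was 1.27 ± 0.12 (adjusted p = 0.000823), and the saline libraries lay at 4.05, 3.57 and 4.23, within the range of the day 7 libraries. Nr4a1, an orphan nuclear receptor, rose from 7.15, 8.56 and 15.3 to 27.0, 34.6 and 27.5 FPKM at 1/5 LD50, and from 11.5, 13.3 and 16.8 to 35, 36.7 and 29.3 at 1/2 LD50. Its change was 1.36 ± 0.16 (adjusted p = 0.00263), and every day 7 library was above the saline libraries (22.0, 21.8 and 20.6). Among the zinc finger factors of the Egr family, Egr1 rose by 1.22 ± 0.14, Egr4 by 0.92 ± 0.13, Egr3 by 0.79 ± 0.09 and Egr2 by 0.46 ± 0.07. Egr4 did not pass without the pair low in cerebellar genes (adjusted p = 0.0807, the highest over 21 alternatives). Nr4a3 rose (0.70 ± 0.09, adjusted p = 0.00337), while Nr4a2 did not pass (0.19 ± 0.09, adjusted p = 0.425). Of the remaining factors, Fosl2 and Klf10 rose by 0.79 ± 0.07 and 0.52 ± 0.07, and Klf4 did not pass (0.47 ± 0.12, adjusted p = 0.141).

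Among list members that act at the synapse, Arc, Homer1 and Nptx2 rose. Arc, which is translated at dendrites and removes AMPA receptors from the membrane, stood at 8.79, 9.31 and 20.4 FPKM at day 3 and 43.4, 62.1 and 53.3 at day 7 after 1/5 LD50. After 1/2 LD50 it stood at 19.4, 14.6 and 18.7 and then at 49.9, 62.9 and 44.9. Its change of 1.79 ± 0.18 (adjusted p = 0.00105) was the highest of the list, and all 6 day 7 libraries were above the saline libraries at 43.1, 39 and 37.6. Homer1, a scaffold of metabotropic glutamate receptors with a short form induced by activity, rose from 14.2, 15.5 and 12.2 to 29.1, 20.1 and 25.6 FPKM at 1/5 LD50 and from 10.8, 14.8 and 12.5 to 19.1, 21.8 and 16.0 at 1/2 LD50 (0.66 ± 0.11, adjusted p = 0.0209). It kept its call in 15 of 21 alternatives and had an adjusted p of 0.0807 without the pair low in cerebellar genes (at most 0.0829 over the alternatives). The deposited table holds 1 value per gene, so short and long Homer1 forms cannot be told apart. Nptx2, a secreted protein that clusters AMPA receptors, rose by 0.52 ± 0.08. Bdnf, a growth factor of active synapses, stood higher in all 6 day 7 libraries (3.3 to 3.98 FPKM) than in all 6 at day 3 (2.55 to 2.94), but missed the threshold (0.29 ± 0.06, adjusted p = 0.0526).

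Phosphatases that switch off MAP kinases were part of the same rise. Dusp1 stood at 5.9, 5.73 and 9.55 FPKM at day 3 and 12.3, 13.6 and 16.3 at day 7 after 1/5 LD50, and at 7.97, 5.91 and 9.95 and then 13.4, 16.3 and 14.6 after 1/2 LD50. The change was 0.88 ± 0.14 (adjusted p = 0.0141), and saline stood at 14.9, 13.1 and 12.4. Without the pair low in cerebellar genes the adjusted p of Dusp1 was 0.0696 (at most 0.0753 over 21 alternatives). Dusp6, which acts on ERK, rose by 0.59 ± 0.07, Dusp4 by 0.47 ± 0.08 and Dusp14 by 0.45 ± 0.08. Dusp5 did not pass (0.10 ± 0.26, adjusted p = 0.911). The other members that did not pass were Btg2, Per1 and Ier2, with changes of 0.49, 0.33 and 0.38.

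**Figure D2:**
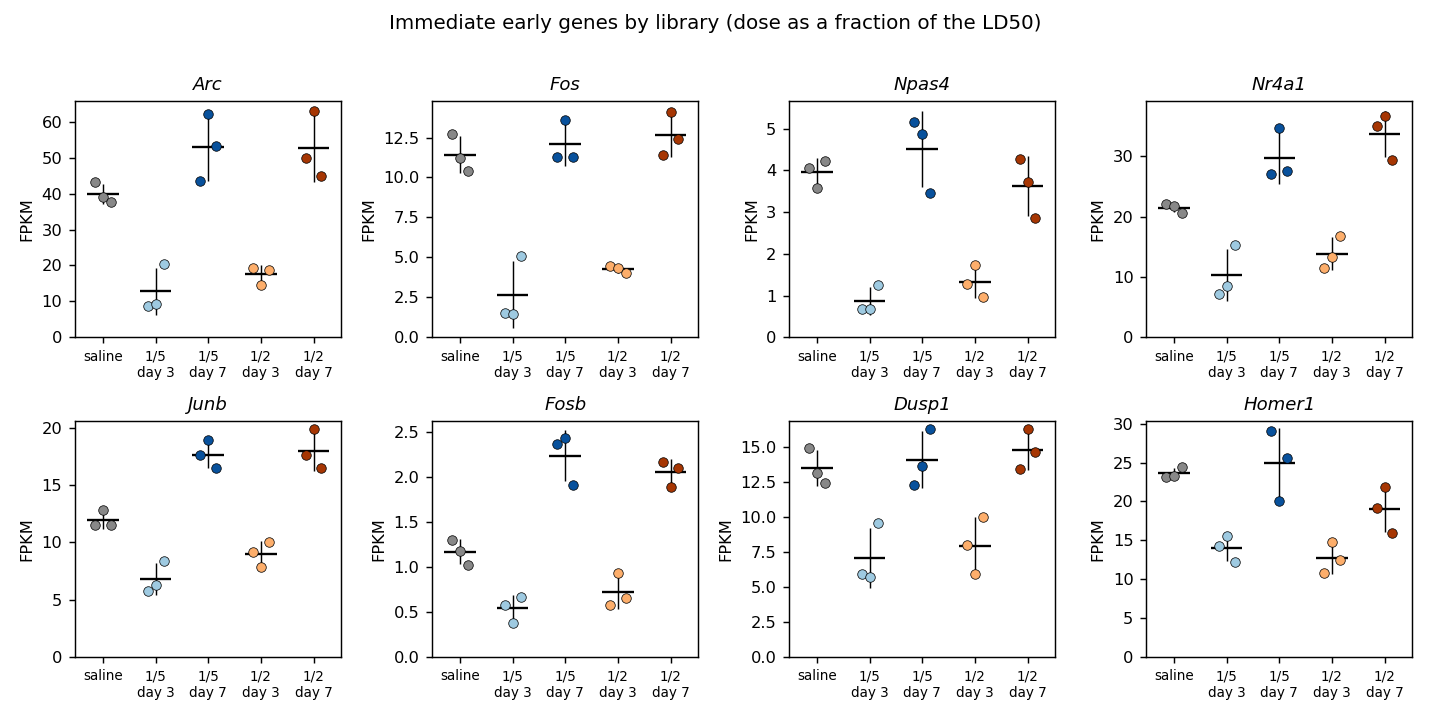
FPKM of 8 immediate early genes in saline and at each dose and day (3 libraries each, points), with the mean (horizontal line) and SD (vertical line). In all 8 genes every day 7 library lies above every day 3 library.

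The rise was seen at each dose, with medians of 0.70 at 1/5 LD50 and 0.53 at 1/2 LD50 over the 30 members. At 1/5 LD50 19 members rose, against 0.612% of all genes, and at 1/2 LD50 3 rose, against 0.0281%. The test of the difference between the doses passed for none of the 30 in limma with 12 libraries (0.00703% of all genes) or with all 39 (0.0633%), and the difference (1/2 minus 1/5 LD50) was below 0 in 26 of them. The median difference was -0.20 over the 30 members and -0.06 over all tested genes, with quartiles of -0.17 and 0.06 for the latter. Arc, Fos, Fosb, Fosl2, Junb, Npas4, Nr4a1, Egr1 and Egr3 passed in 21 of 21 alternatives, each with an adjusted p of at most 0.0297. The count of 21 risen members was 14 without the pair of libraries low in cerebellar genes, and 14 with no filter on low values.

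At 1/10 LD50 the same genes did not move as one. Arc stood at 8.75, 15.9 and 17.0 FPKM at day 3 and 16.0, 8.91 and 11 at day 7, below every saline library on each day, and Junb at 5.28, 8.58 and 9.76 and then 9.64, 4.92 and 5.63. With all 39 libraries in the model, 4 of the 30 members rose at this dose and 1 fell, against 4.18% and 14.2% of all tested genes, and the median change was -0.01. For 16 of the 30 the change at the higher doses was above that at 1/10 LD50, against 3.37% of all tested genes; this test was added after the data were seen. The difference was 1.97 for Arc (adjusted p = 0.000385) and 1.31 for Junb (adjusted p = 0.00625). The day 7 libraries with the high mitochondrial share are replicates 2 and 3 of this dose, and their part in this difference was not tested.

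Chaperones of the endoplasmic reticulum rose at 1/5 LD50, where 10 of 24 listed and tested members passed and none fell, against 0.612% risen among all genes. None passed at 1/2 LD50 in limma, where the lowest adjusted p of the list was 0.557. Averaged over the doses 7 of the 24 rose, against 0.457% of all genes, and none fell, with a median of 0.16; the medians were 0.34 at 1/5 LD50 and 0.04 at 1/2 LD50. Promoters of 3 risen members, chosen because they hold the element of the unfolded protein response, are printed. They are again the 200 bases before the start from RefSeq on GRCm38.p6. Capitals mark CCAAT, 9 bases of any kind and CCACG, or the reverse complement.
Hspa5, chr2:34771890-34772089, plus strand: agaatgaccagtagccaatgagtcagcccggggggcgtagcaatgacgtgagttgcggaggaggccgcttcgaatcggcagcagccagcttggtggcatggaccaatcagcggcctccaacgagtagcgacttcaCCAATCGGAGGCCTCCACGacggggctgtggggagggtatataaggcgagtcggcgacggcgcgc
Creld2, chr15:88819446-88819645, plus strand: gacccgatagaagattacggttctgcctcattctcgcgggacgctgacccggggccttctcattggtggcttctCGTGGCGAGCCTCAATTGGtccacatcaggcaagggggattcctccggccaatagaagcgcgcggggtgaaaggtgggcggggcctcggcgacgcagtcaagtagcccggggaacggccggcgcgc
Calr, chr8:84846932-84847131, minus strand: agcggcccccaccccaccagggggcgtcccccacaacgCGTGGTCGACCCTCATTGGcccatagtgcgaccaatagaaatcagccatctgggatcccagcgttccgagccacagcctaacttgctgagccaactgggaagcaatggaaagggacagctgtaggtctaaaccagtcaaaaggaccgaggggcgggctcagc

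The element starts 65 bases before the start site in Hspa5, 126 in Creld2 and 162 in Calr. It was found in 8 of 22 list members with a window (36.4%) and in 3 of the 6 risen members with a window, against 0.169% of tested genes, 0.13% of all windows and 0 of the 22 immediate early genes with a window.

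Hspa5, which encodes BiP, the most studied chaperone of the compartment, stood at 90.1, 90.5 and 87.1 FPKM at day 3 and 185, 184 and 155 at day 7 after 1/5 LD50. After 1/2 LD50 it stood at 103, 96.9 and 77.8 and then at 103, 93.5 and 99.6. Saline stood at 175, 168 and 181, so that the day 7 libraries of the lower dose lay around saline while those of the higher dose lay among the day 3 libraries. The change was 0.96 ± 0.10 at 1/5 LD50 (adjusted p = 0.00116) and 0.10 ± 0.10 at 1/2 LD50 (adjusted p = 0.766). Creld2, a secreted protein induced by stress of the compartment, went from 9.02, 7.57 and 9.05 to 19.7, 20.3 and 17.0 FPKM at 1/5 LD50 and from 11.4, 8.31 and 8.57 to 10.4, 9.15 and 10.5 at 1/2 LD50. Manf, a neurotrophic protein kept in the compartment until stress, went from 42.5, 40.0 and 37.5 to 72.6, 77.5 and 67.0 FPKM at 1/5 LD50 and from 44.8, 40.6 and 36.8 to 45.8, 42.1 and 43.6 at 1/2 LD50. At 1/5 LD50 the groups of both genes were apart, and at 1/2 LD50 they overlapped. Xbp1, the transcription factor of the response, rose from 18.1, 15.1 and 19.2 to 32.2, 36.7 and 30.1 FPKM at 1/5 LD50 (0.88 ± 0.09, adjusted p = 0.000902). At 1/2 LD50 it stood at 19.3, 19.7 and 19.1 and then at 20.4, 19.8 and 20.9 (0.07 ± 0.09, adjusted p = 0.837), with the day 7 libraries just above those of day 3.

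**Figure D3:**
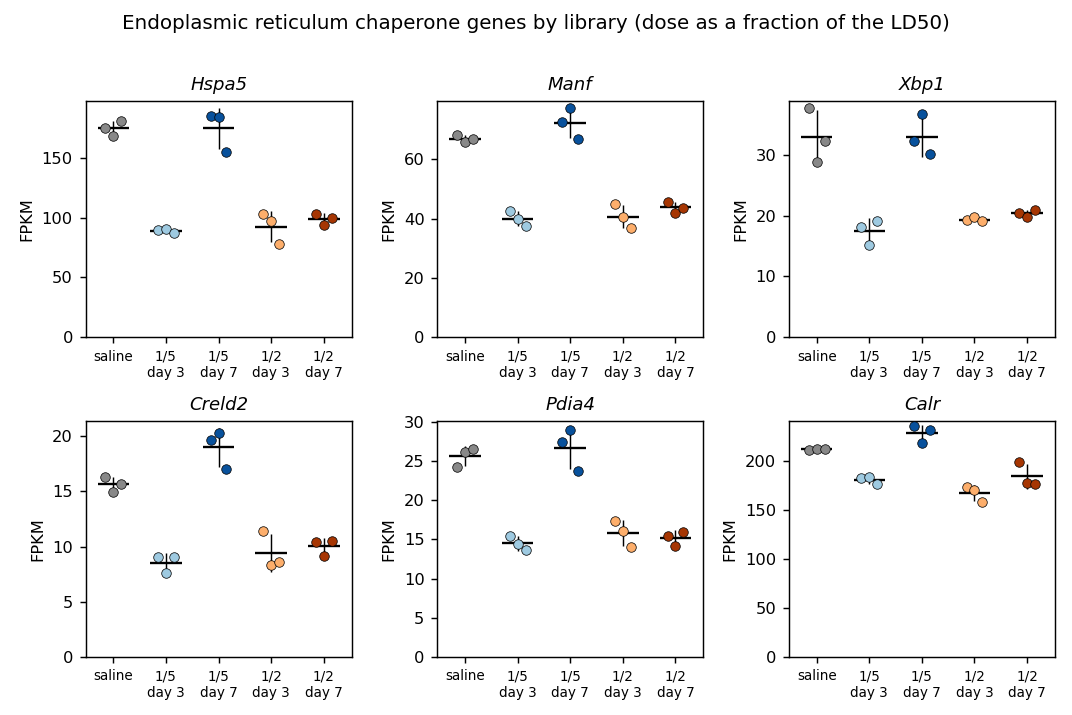
FPKM of 6 genes of endoplasmic reticulum folding in saline and at each dose and day (3 libraries each, points), with the mean (horizontal line) and SD (vertical line). At 1/5 LD50 every day 7 library lies above every day 3 library in all 6 genes, while at 1/2 LD50 the days overlap in Hspa5, Manf, Creld2 and Pdia4, and lie apart by a small margin in Xbp1 and Calr.

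Pdia4, a disulfide isomerase, rose by 0.84 ± 0.09 at 1/5 LD50, and Sdf2l1, a partner of BiP, by 1.15 from 7.36, 5.37 and 4.97 to 15.7, 13.6 and 13.1 FPKM. Calr, a lectin chaperone that binds calcium, Hyou1, Pdia6 and Dnajb11 rose at this dose by 0.34, 0.39, 0.61 and 0.43. Herpud1, which acts in degradation of misfolded proteins, and the transcription factors Ddit3 and Atf4 did not pass there (0.39, 0.41 and 0.22, adjusted p = 0.0796, 0.14 and 0.101). The membrane chaperone Canx and the isomerase P4hb did not pass either (0.00 and 0.07). The difference between the doses (1/2 minus 1/5 LD50) was below 0 in 23 of the 24 members, with a median of -0.26. Over all tested genes its median was -0.06, with quartiles of -0.17 and 0.06. Differences below 0 were not particular to this list: they were seen in 39 of 40 nuclear-encoded respiratory chain genes and 25 of 25 spliceosome and RNA-processing genes. Among potassium channels they were seen in 10 of 36. With 12 libraries no member passed the test of that difference in limma, against 0.00703% of all genes, with an adjusted p of 0.0876 for Pdia4, Xbp1 and Manf and 0.0905 for Hspa5 and Creld2. With all 39 libraries in the model Pdia4, Creld2, Xbp1 and Manf passed, 4 of 24 against 0.0633% of all genes, with differences of -0.89, -0.98, -0.82 and -0.73 (adjusted p = 0.00873, 0.0142, 0.0283 and 0.0408). Hspa5 missed the threshold there (-0.86 ± 0.18, adjusted p = 0.0546).

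Averaged over the doses, the count of 7 risen chaperone genes fell to 2 (Manf and Xbp1) without the pair low in cerebellar genes, to 4 with no filter on low values and to 0 in an additive model without a dose-specific change, with 14 at an unadjusted p under 0.05. It was 4 when any 1 of 6 libraries was left out: at 1/5 LD50, replicates 2 and 3 of day 3 and replicates 1 and 2 of day 7, and at 1/2 LD50, replicates 1 and 3 of day 7. The additive model puts a difference between the doses into the error. At 1/10 LD50, with all 39 libraries, 9 of the 24 members rose and 2 fell, against 4.18% and 14.2% of all tested genes, with a median of 0.14; Hspa5 stood there at 108, 111 and 97.6 FPKM at day 3 and 149, 136 and 99.3 at day 7.

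**Figure D4:**
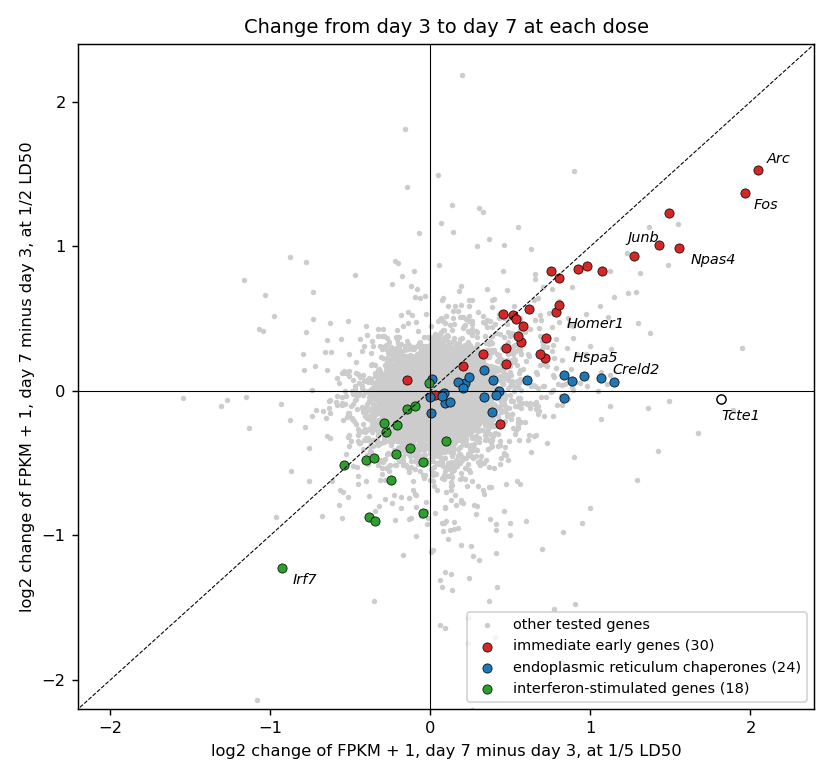
Log2 change of FPKM + 1 from day 3 to day 7 at 1/5 LD50 (x) and 1/2 LD50 (y) for tested genes (grey), 30 immediate early genes (red), 24 endoplasmic reticulum chaperones (blue), 18 interferon-stimulated genes (green) and Tcte1 (open); the dashed line marks equal change, and 7 genes lie outside the axes. Immediate early genes have medians of 0.70 and 0.53, with 26 of 30 below the dashed line, and chaperones spread along the x axis with medians of 0.34 and 0.04.

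Among heat shock proteins of the cytosol and nucleus, which refold proteins outside that compartment, 3 of 24 members rose, against 0.457% of all genes, and none fell, against 0.112%. The median was 0.09, with 20 of the 24 changes above 0. In limma 11 of the 24 had an unadjusted p under 0.05, against 1637 of 14227 tested genes. At 1/5 LD50 alone 4 rose, against 0.612%, and at 1/2 LD50 none did, against 0.0281%. The difference between the doses (1/2 minus 1/5 LD50) was below 0 in 20 of the 24. The 3 that rose over both doses were Dnajb1 and Dnajb5, co-chaperones of HSP70, and Hspb1, a small heat shock protein. Hspb1 stood at 5.6, 3.86 and 4.35 FPKM at day 3 and 8.06, 12.0 and 10.6 at day 7 after 1/5 LD50, and at 5.25, 3.87 and 4.09 and then 4.72, 5.26 and 7.2 after 1/2 LD50. The change was 0.65 ± 0.12 (adjusted p = 0.0411), and the libraries of the higher dose overlapped between the days. Dnajb5 and Dnajb1 rose by 0.42 ± 0.07 and 0.29 ± 0.05. None of these 3 calls held without the pair low in cerebellar genes (adjusted p = 0.105 for Hspb1, 0.107 for Dnajb5 and 0.0696 for Dnajb1). Hspb1 and Dnajb1 kept their calls in 8 of 21 alternatives each and lost them in 9 of the 12 that left out 1 library, and Dnajb5 kept its call in 14, with highest adjusted p-values of 0.132, 0.203 and 0.107. Abundant members such as Hspa8 and Hsp90aa1 did not pass (0.05 and 0.05). Hspa1a and Hspa1b, whose near-identical copies make their split uncertain, had changes of 0.50 and 0.49 (adjusted p = 0.0766 and 0.188).

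Of the cold-inducible RNA-binding proteins, which rise when body temperature falls, Cirbp fell at day 7 and Rbm3 did not pass. Cirbp stood at 44.1, 45.5 and 44.1 FPKM at day 3 and 35.8, 34.5 and 37.4 at day 7 after 1/5 LD50, and at 47.6, 43.8 and 47.4 and then 40.2, 32.6 and 35.2 after 1/2 LD50. All day 7 libraries lay below all day 3 libraries and above the saline libraries at 25.4, 30.2 and 28. The change was -0.33 ± 0.05 (adjusted p = 0.0141), and it kept an adjusted p under 0.05 in 20 of 21 alternatives, but not with all 39 libraries (0.101). Rbm3, the other gene of this pair, missed the threshold (-0.42 ± 0.08, adjusted p = 0.0526). It stood at 33.8 to 47.2 FPKM over the day 3 libraries, 25.9 to 37.7 over the day 7 libraries and 17.7 to 23.6 in saline.

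Interferon-stimulated genes, which cells use against viruses, tended to lower values at day 7. The change was below 0 in 17 of the 18 tested, with a median of -0.30, and 2 of 18 fell and none rose, against 0.112% fallen among all genes. Irf7, the factor that amplifies the interferon response, stood at 2.97, 4.18 and 4.87 FPKM at day 3 and 0.702, 2.58 and 1.88 at day 7 after 1/5 LD50. After 1/2 LD50 it stood at 7.39, 3.41 and 3.06 and then at 1.39, 1.26 and 1.18. The days did not overlap, and saline ranged from 1.15 to 4.97. The change was -1.08 ± 0.21 (adjusted p = 0.0495). Ifi27 went from 30.2, 31.0 and 32.4 to 16.9, 24.7 and 22.7 FPKM at 1/5 LD50 and from 31.7, 26.1 and 22.1 to 19.7, 16.1 and 18.9 at 1/2 LD50 (-0.53 ± 0.10, adjusted p = 0.0481), with saline at 20.5, 18.6 and 18.8. Stat2, a factor of the same pathway, and Ifit3b did not pass (-0.27 and -0.41, adjusted p = 0.187 and 0.213). Both calls lie close to the threshold: Irf7 kept its call in 6 of 21 alternatives and Ifi27 in 7, and without the pair low in cerebellar genes the adjusted p was 0.163 and 0.14, with highest values over all alternatives of 0.163 and 0.145.

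The list of antigen presentation genes holds genes that load and present peptides on MHC class I, together with guanylate-binding proteins. All 14 tested members were highest in 1 library, replicate 1 of 1/2 LD50 at day 3. None passed in limma (1 at an unadjusted p under 0.05), although the change was below 0 in all 14. The median was 0.06 at 1/5 LD50 and -1.18 at 1/2 LD50. Gbp4, an interferon-induced GTPase, stood at 14.0, 1.38 and 2.53 FPKM at day 3 of that dose and at 0.403 to 0.623 at day 7. H2-K1, a class I heavy chain, stood at 6.06, 2.98 and 3.33 FPKM at day 3 and 1.22, 2.97 and 2.89 at day 7 after 1/5 LD50, and at 39.5, 18.0 and 7.2 and then 2.66, 2.37 and 1.32 after 1/2 LD50. Its days did not overlap, as in 0.527% of all genes in that direction, but it did not pass (-1.60 ± 0.33, adjusted p = 0.0711). Class I genes are polymorphic and similar in sequence, so their values are uncertain.

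The remaining named falls were small. Sqle, an oxygenase of cholesterol synthesis, stood at 34.2, 33.9 and 33.9 FPKM at day 3 and 25.1, 27.2 and 25.1 at day 7 after 1/5 LD50, and at 35.5, 34.3 and 33.1 and then 29.0, 28.8 and 31.8 after 1/2 LD50. The days did not overlap, and the change was -0.29 (adjusted p = 0.00751). Aacs, which feeds ketone bodies into lipid synthesis, fell by 0.22, and Gpcpd1, a glycerophosphodiesterase, by 0.25. Pkia, an inhibitor of protein kinase A, fell by 0.26, Slc6a15, an amino acid transporter of neurons, by 0.22 and Slc18b1, a vesicular polyamine transporter, by 0.44. Thnsl1 fell by 0.46, and Letmd1, Dipk1a and Tmem18 by 0.32, 0.23 and 0.21. Of these 10 genes, Thnsl1 kept its call in 21 of 21 alternatives, Sqle and Gpcpd1 in 20, and the other 7 in at most 5. Without the pair low in cerebellar genes Thnsl1 alone of the 10 passed, with an adjusted p of 0.0578 for Sqle and 0.068 for Gpcpd1.

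Some rises lay outside these groups. Tnfrsf25, a death domain receptor of the TNF family, stood at 0.778, 0.813 and 0.59 FPKM at day 3 and 2.8, 3.66 and 3.31 at day 7 after 1/5 LD50, and at 1.21, 0.986 and 1.19 and then 1.88, 2.47 and 1.57 after 1/2 LD50. The days did not overlap (0.89, adjusted p = 0.000823), and saline stood at 1.8, 1.69 and 2.11. Tcte1, a part of the dynein regulatory complex of motile cilia, stood at 2.01, 2.18 and 1.45 FPKM at day 3 after 1/5 LD50, and at 6.08 to 10.6 in the other 9 libraries. The saline libraries spread from 1.71 to 5.69 FPKM, so that its level differed over 3-fold within that group. Among mitochondrial genes, the transfer RNAs TrnI and TrnD rose by 0.81 and 0.80 (adjusted p = 0.0338 and 0.039). A further transfer RNA, TrnL1, which the naming rule did not take, rose by 0.40 ± 0.07 (adjusted p = 0.0209). Its mean went from 136 to 179 FPKM with no overlap of the days, and its calls under the alternatives are not given here. None of 13 mitochondrial messenger RNAs passed in limma (10 at an unadjusted p under 0.05, median 0.25), against 0.569% of all tested genes. Without the pair low in cerebellar genes TrnI and TrnD did not pass (adjusted p = 0.111 and 0.123). They kept their calls in 7 and 8 of 20 alternatives and lost them in 10 of the 12 that left out 1 library, with highest adjusted p-values of 0.123 and 0.134. The mitochondrial share was also higher at day 7, and its part in these values was not tested.

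Gh, which encodes growth hormone of the anterior pituitary, had the largest log2 change among the genes that rose (3.64 ± 0.54, adjusted p = 0.012). It stood at 0 to 0.188 FPKM in the 6 day 3 libraries. At day 7 it stood at 4.22, 18.4 and 8.74 FPKM after 1/5 LD50 and at 2.7, 22.7 and 55.8 after 1/2 LD50, and saline stood at 6.18, 0 and 2.15. Prl, the prolactin gene, was listed at 0 in all 6 day 3 libraries and stood at 0.291 to 3.79 FPKM at day 7 (adjusted p = 0.123). With day 3 values below 1 FPKM, Gh and Prl entered the test only through their day 7 libraries. Gh kept its call in 20 of 21 alternatives, but not with no filter on low values (adjusted p = 0.0739 in limma). Its group means varied elsewhere too: 18.3 FPKM (SD 19.2) at 1/2 LD50 day 1, 10.0 (SD 9.92) at 1/5 LD50 day 14 and 0.689 at 1/2 LD50 day 14. Of 8 listed pituitary genes 3 were tested, and the list summed to 1.10 to 3.33 FPKM at day 3 and to 5.60 to 63.6 at day 7. Whether pituitary tissue was present in some of the samples was not tested otherwise.

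Cholinergic genes did not pass the test. Ache, the gene of the enzyme that soman inactivates, stood at 32.9, 34.9 and 35.6 FPKM at day 3 and 32.2, 38.6 and 33.1 at day 7 after 1/5 LD50, and at 43.8, 37.1 and 29.9 and then 32.5, 28 and 39.9 after 1/2 LD50. The days overlapped at each dose (-0.07 ± 0.10, adjusted p = 0.837). Bche, of the related butyrylcholinesterase, and Chat, of the enzyme that makes acetylcholine, had changes of 0.09 ± 0.11 and -0.12 ± 0.13 (adjusted p = 0.795 and 0.775). None of 14 tested cholinergic genes passed in limma (2 at an unadjusted p under 0.05), against 0.569% of all tested genes.

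**Figure D5:**
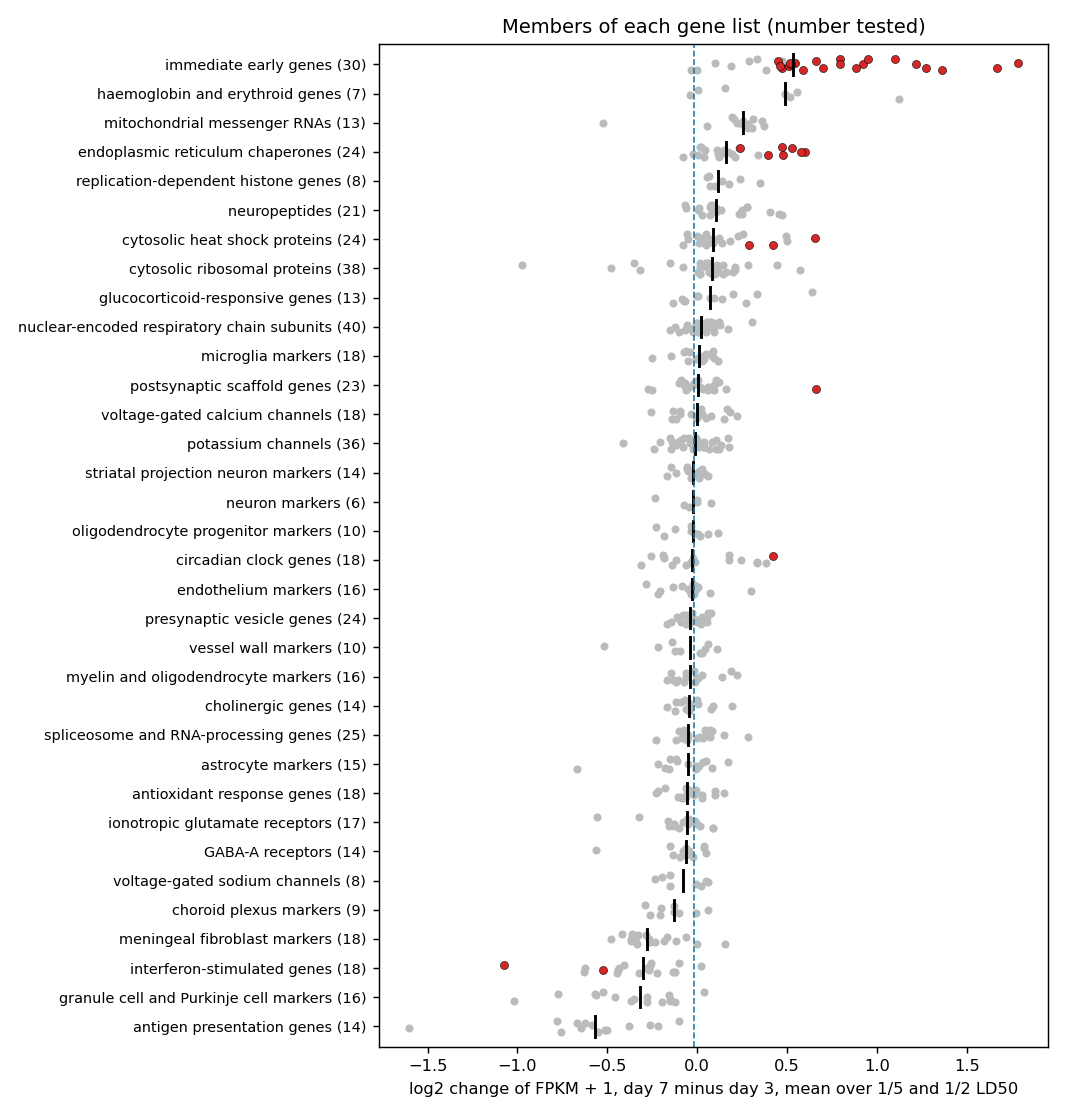
Log2 change of FPKM + 1 from day 3 to day 7, averaged over both doses, for the members (points) of each gene list with at least 5 tested genes; red points passed the test, black bars are list medians and the dashed line is the median of all tested genes. Red points gather among immediate early genes (21 of 30) and endoplasmic reticulum chaperones (7 of 24).

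Of 36 gene lists 8 had at least 1 member that passed, and 28 had none. Besides those described, Bhlhe40, a repressor in the circadian clock, rose as 1 of 18 clock genes, against 0.457% of all genes (0.42 ± 0.08, adjusted p = 0.0494), with 20, 22.3 and 19.6 FPKM at day 7 after 1/5 LD50 and 20.1, 20.3 and 19.9 after 1/2 LD50, against 11.6 to 17.4 at day 3. Bhlhe40 kept its call in 5 of 21 alternatives, lost it in 11 of the 12 that left out 1 library, and had its highest adjusted p, 0.163, without the pair low in cerebellar genes. Of the 18 clock genes, 9 had an unadjusted p under 0.05 in limma, against 1637 of 14227 tested genes, with 7 changes above 0 and 11 below. In 3 of the 18, all day 7 libraries lay above all day 3 libraries, against 0.576% of all tested genes. The clock genes Nfil3, Nr1d1 and Per3 did not pass (0.38, 0.33 and -0.26), nor did Dlgap2, Dlgap4 and Camk2b (-0.27, 0.16 and -0.10) of the postsynaptic scaffold list, in which Homer1 was the 1 of 23 members that rose. Markers of other cells showed no member that passed in limma, against 0.569% of all tested genes. Of those 14227 genes, 1637 had an unadjusted p under 0.05. At that share of calls, a count of 0 in lists of this size does not set these cells apart from all genes. For microglia the count of passed members was 0 of 18 (1 at an unadjusted p under 0.05, median 0.01), for astrocytes 0 of 15 (1, -0.05), for myelin and oligodendrocytes 0 of 16 (2, -0.04) and for endothelium 0 of 16 (2, -0.03). For meningeal fibroblasts, the collagen-forming cells of the brain's membranes, it was 0 of 18, with 13 at an unadjusted p under 0.05, a median of -0.28 and 17 changes below 0. Col3a1, a collagen of that list, had a change of -0.42 ± 0.12 (adjusted p = 0.185), and the list summed to 612 to 794 FPKM at day 3 and 533 to 755 at day 7. For granule and Purkinje cells of the cerebellum it was 0 of 16, with a median of 0.16 at 1/5 LD50 and -0.99 at 1/2 LD50; the pair of libraries low in these genes lies at day 3 in the former and at day 7 in the latter. Haemoglobin and erythroid genes had a median of 0.49 with 0 of 7 passed (2 at an unadjusted p under 0.05), and their sums overlapped, with 619 to 1274 FPKM at day 3 and 823 to 1576 at day 7. Presynaptic vesicle genes (0 of 24, median -0.04), GABA-A receptors (0 of 14, -0.06) and potassium channels (0 of 36, -0.01) lay near the median of all genes, with 0, 0 and 3 at an unadjusted p under 0.05. Scn1a, a sodium channel, had a change of -0.15 ± 0.09 (adjusted p = 0.547).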

How the data were processed

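RNA of mouse brain was selected with poly(dT) and sequenced, per the labels' protocols. The aligner was HISAT2 in the submitters' processing notes, and the build named there is GRCh38, a human one, so coordinates are not taken from the files. The authors deposited FPKM for 47561 genes in 39 libraries as 1 table, and the program behind them is not given in the sources used here. Low values gave back no whole reads, so the depth is unknown.

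Groups came from the labels. From the FPKM, log2(FPKM + 1) was fitted as 4 group means with limma 3.58.1 (R 4.3.3; lmFit, eBayes with trend, 8 residual degrees of freedom), with Benjamini-Hochberg adjustment over 14227 genes. Contrasts were day 7 minus day 3 at each dose, their mean and their difference. Limma p-values set a difference between group means against the spread of libraries within groups, with that spread estimated using all tested genes. The number of animals per library is not given, so the spread between animals is not known. Promoters came from RefSeq. The code was tested on simulated data. Figures used Python 3.11.15 and matplotlib 3.10.9.

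The comparison and the gene lists were chosen with earlier results of these data known. The pituitary list, the alternative without 2 libraries and the test against 1/10 LD50 were added after the data were seen. Named genes were the 15 largest rises and falls that passed with a known symbol and a mean of 2 FPKM in a group (13 falls existed), up to 4 members of smallest p per list with a call, up to 6 genes of the dose difference, and Ache, Bche, Chat, Hspa5, Fos, Arc, Col3a1, Rbm3 and Scn1a. List members that did not pass are given to account for their lists. Each of the following was changed alone: the pseudocount (to 0.1), the filter (removed), the scaling (median ratio), the mitochondrial genes (left out), the libraries in the model (all 39), a replicate block, the trend on transcript length (removed, GENCODE vM21, 97.7% of tested genes), the model (additive) and the set of libraries (each left out).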

Additional observations from a re-analysis of the deposited data

Results flagged for a closer look

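The change of Tcte1 from day 3 to day 7 differed between the doses by a direct test. It was 1.82 at 1/5 LD50 and -0.05 at 1/2 LD50, and the difference of -1.87 (1/2 minus 1/5 LD50) passed with an adjusted p of 0.00489 in limma, alone among 14227 genes (0.00703%). At 1/5 LD50 every day 7 library (9.79, 7.24 and 10.6 FPKM) was above every day 3 library (2.01, 2.18 and 1.45). At 1/2 LD50 the libraries stood at 6.55, 6.93 and 6.87 FPKM at day 3 and 6.44, 6.08 and 7.0 at day 7. Libraries of 1 group elsewhere in the series differed as much: those of 1/10 LD50 at day 3 stood at 5.9, 1.65 and 6.51 FPKM. With all 39 libraries in the model, which takes in that spread, the dose difference did not pass (-1.87, adjusted p = 0.328), nor did the change averaged over the doses (adjusted p = 0.217, at most 0.275 over 21 alternatives).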

How the results depend on the processing

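None of the 38 named genes that passed reversed its direction under any alternative. The mitochondrial share and the number of genes above 0 kept theirs with 1 library left out. Counts of genes have no direction, and a change of sign in genes that did not pass was not followed. The count of 81 changed genes was 48 with no filter on low values, 140 with all 39 libraries and 34 without the pair low in cerebellar genes; leaving out 1 library gave 40 to 68, with 51 without replicate 2 of 1/2 LD50 at day 3, 47 without replicate 1 of 1/5 LD50 at day 7, and 40 and 45 without replicates 1 and 2 of 1/2 LD50 at day 7. For 1/5 LD50 the 99 became 37, 166 and 35 under the same 3 changes and 24 to 79 with 1 library left out: 56, 29 and 65 without replicates 1, 2 and 3 of its day 3 group, 36, 24 and 44 without those of its day 7 group, 53 and 60 without replicates 2 and 3 of 1/2 LD50 at day 3, and 50 without replicate 2 of 1/2 LD50 at day 7. For 1/2 LD50 the 4 became 2, 13 and 1, and 0 with a pseudocount of 0.1 (1268 at an unadjusted p under 0.05 in limma). Leaving out 1 library gave 0 to 8 there, and 8 came without replicate 3 of 1/5 LD50 at day 3. It gave 0 without replicate 2 of that group, replicate 1 or 2 of 1/2 LD50 at day 3 or any library of 1/5 LD50 at day 7 (887 to 1409 at an unadjusted p under 0.05), and 1, 1 and 2 without replicates 1, 2 and 3 of 1/2 LD50 at day 7. The single dose difference became 0 with no filter (2409 at an unadjusted p under 0.05), 9 with all 39 libraries and 1 to 4 with 1 library left out, the 4 without replicate 3 of 1/2 LD50 at day 3. Risen chaperone genes numbered 4 with no filter, 0 in the additive model, 2 without the pair and 4 to 6 with 1 library left out, and risen immediate early genes 17 to 22. The mitochondrial difference ranged from 1.43 to 1.98 percentage points with 1 library left out, and its exact permutation p reached 0.075, over 0.05 in 7 of the 12 cases, and 0.05 in 1 more. The difference in genes above 0 ranged from 2398 to 2990. For these changes the cause was not tested, beyond the fewer samples or larger number of genes tested that they bring. Same-numbered libraries did not deviate together (correlations -0.26 to 0.19 over 18 pairs, median 0.01), so no pairing by replicate number was seen. Whether the number marks a shared batch was not tested otherwise. As a block the replicate number gave 60 changed genes, 52 at 1/5 LD50, 0 at 1/2 LD50 (1174 at an unadjusted p under 0.05) and 1 dose difference. Depth is unknown, and 3 libraries a group limit the precision.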

Other observations

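A few genes outside the lists were singled out after their values were seen. Arl4d, a small GTPase, rose at day 7 (log2 change 0.73 ± 0.08, adjusted p = 0.00105), from a mean of 4.43 FPKM over 6 day 3 libraries to 8.03 over 6 day 7 libraries, with no overlap. Gadd45b, a stress-inducible regulator of MAP kinase signalling, rose from 5.68 to 7.91 FPKM (0.42 ± 0.06, adjusted p = 0.0141). Relb, a subunit of NF-kappa-B, rose from 0.715 to 1.62 FPKM (0.59 ± 0.11, adjusted p = 0.0347), and Fabp7, a fatty acid binding protein of radial glia and astrocytes, from 51.5 to 81.3 FPKM (0.64 ± 0.11, adjusted p = 0.0214). The days did not overlap in Gadd45b and Relb and overlapped in Fabp7. Relb stood at 0.651 to 0.749 FPKM over the 6 day 3 libraries, so it entered the test only through day 7 libraries. The calls of Arl4d, Gadd45b, Relb and Fabp7 under the alternatives are not given here.

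P4ha1, a prolyl hydroxylase of collagen that works in the endoplasmic reticulum and was not on the chaperone list, rose at 1/5 LD50 (0.67, adjusted p = 0.000832) and did not pass at 1/2 LD50 (0.12, adjusted p = 0.596). With all 39 libraries its dose difference passed (-0.55 ± 0.09, adjusted p = 0.00873). Among the 9 genes of that test, Per2, a circadian repressor, also had a lower change at 1/2 LD50 (-0.96 ± 0.18, adjusted p = 0.0142), and Hecw2, a ubiquitin ligase, a higher one (0.59 ± 0.10, adjusted p = 0.00873).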
